A study of Mus musculus with 4 samples.

Results

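The respiratory chain subunits examined here were the nuclear genes for complexes I to V of oxidative phosphorylation, measured in mouse embryonic stem cells that carried or lacked a working gene for the histone demethylase UTX. Members were all probe sets assigned to a single gene whose symbol is that of a complex I (Nduf), II (Sdh), III (Uqcr), IV (Cox) or V (Atp5) subunit. This took 81 genes and 164 probe sets of 18193 genes and 45101 probe sets in all: 35 genes of complex I, 4 of complex II, 8 of complex III, 17 of complex IV and 17 of complex V. The choice used symbols only, and 78 of the 81 genes passed a filter on dim signal and were tested.

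RNA came from 2 UTX conditional knockout lines (cKO, line 1 and line 2) and 2 UTX knockout lines (KO, line 1 and line 2), each hybridised to 1 Affymetrix Mouse Genome 430 2.0 array. UTX is the product of the X-linked gene Kdm6a and removes methyl groups from lysine 27 of histone H3. All 4 lines had been grown with LIF and serum on irradiated fibroblast feeders and then passaged on gelatin without feeders. The sources used here do not name the strain, the deleted exons, or the recombinase and how the KO lines were derived. The cKO lines stand as the controls, and lines without the conditional allele are not analysed here. The cKO lines are described as independent and the KO lines are not, so p-values reflect line-to-line spread that may in part be technical.

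The respiratory chain passes electrons from NADH (complex I) and succinate (complex II) through ubiquinone to complex III, through cytochrome c to complex IV and on to oxygen. Complexes I, III and IV pump protons across the inner mitochondrial membrane, and complex V, the ATP synthase, uses the gradient to make ATP. Most subunits are encoded in the nucleus and belong to nearly every cell, while a few complex IV subunits exist in a ubiquitous form and a form restricted to a tissue or stage. Mouse embryonic stem cells draw on glycolysis as well as respiration and hold comparatively immature mitochondria. NRF1, GABPA (an ETS factor) and YY1 are transcription factors known to act at promoters of these genes.

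Promoter sequence was looked up for the members because these genes share known promoter elements that the choice by symbol did not use. RefSeq windows (GRCm38.p6) of 300 bases, from 250 before to 50 after the annotated start, matched 66 of the 81 members by symbol. Letters were searched on both strands, and the matches are descriptions of the sequence and not measured sites. The letters of the NRF1 element (GCGCANGCG) stood in 18 of 66 windows (27.3%), against 16.2% of 8887 tested genes with a window and 7.03% of all 27025 genes with one. The ETS letters (CCGGAAG) stood in 17 (25.8%), against 21.1% of tested genes and 9.93% of all genes. The YY1 letters (AANATGGC) stood in 15 (22.7%), against 10.5% and 6.96%. Of these 15 genes, 11 belonged to complex I and 4 to complex V. The CCAAT letters were about as frequent in members (28, 42.4%) as in all genes (41.1%). These elements can overlap one another, and each was counted on its own.

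Promoters of 3 genes are shown because the results turn on complex IV isoform genes: Cox6b2, the single member called below, its ubiquitous counterpart Cox6b1, and Cox6a1, a member with all but the YY1 letters. Each is written 5′ to 3′ on the strand of the gene (minus in every case) and ends at the base before the annotated start, and capitals mark the letters of the searched elements on either strand. Cox6b2 lies at chr7:4753095-4753225, cut to 131 bases where the neighbouring gene Fam71e2 begins. Cox6b1 lies at chr7:30626115-30626364 and Cox6a1 at chr5:115348959-115349208.
Cox6b2: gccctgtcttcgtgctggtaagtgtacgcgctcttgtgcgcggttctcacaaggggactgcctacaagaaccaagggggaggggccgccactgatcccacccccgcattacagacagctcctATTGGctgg
Cox6b1: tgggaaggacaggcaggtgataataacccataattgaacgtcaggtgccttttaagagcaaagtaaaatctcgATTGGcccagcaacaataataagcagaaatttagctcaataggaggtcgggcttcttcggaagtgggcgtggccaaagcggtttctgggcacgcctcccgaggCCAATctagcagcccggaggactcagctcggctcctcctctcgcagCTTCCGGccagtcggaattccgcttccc
Cox6a1: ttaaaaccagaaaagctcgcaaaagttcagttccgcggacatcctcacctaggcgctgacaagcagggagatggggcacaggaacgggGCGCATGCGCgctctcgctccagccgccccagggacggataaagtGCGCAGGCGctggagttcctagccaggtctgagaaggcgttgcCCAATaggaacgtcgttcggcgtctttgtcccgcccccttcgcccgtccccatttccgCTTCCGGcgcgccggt
The Cox6b2 stretch held the CCAAT letters in reverse (ATTGG) and none of the NRF1, ETS or YY1 letters, while Cox6b1 held CCAAT letters on both strands and ETS letters. Cox6a1 held the NRF1 letters at 2 places, the CCAAT letters and the ETS letters.

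Most respiratory chain transcripts differed little between KO and cKO lines, and 1 subunit gene was called. Cox6b2, the isoform of cytochrome c oxidase subunit 6B known from testis, was 1.86-fold higher in the KO lines. Values below are MAS5 signals on a linear scale, and differences are log2 differences KO minus cKO on log2(signal + 4.79), which understate the change of dim genes. Adjusted p-values are from limma with the Benjamini-Hochberg method over all 10916 genes tested, and a gene was called under 0.05. Of 78 tested members 1 was called, higher in KO (1.28%), where 2.2% of all genes were called, 0.632% higher and 1.57% lower. The median difference of the members was 0.0445 (51 positive, 27 negative), against 0.0081 over all genes, and it ran from -0.047 to 0.11 when single arrays were left out. The median size of the difference, without its sign, was 0.066 for members and 0.17 for all genes.

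The intervals bound most differences of the probe sets used, as measured on the signal scale. They do not cover differences between probe sets of the same gene, which are given below. The 95% interval lay within a 2-fold change in either direction for 75 of 78 members (96.2%) and for 79.6% of all genes. It lay within 0.5 on the log2 scale for 64 members (82.1%) and for 28.6% of all genes. Brightness goes with this precision: of 934 tested genes with a mean signal over 5000, 99.4% had an interval within 2-fold, 0.642% were called, and the median size of the difference was 0.084. The 63 members over that level all had an interval within 2-fold, none was called (3 had an unadjusted p under 0.05), and their median size was 0.065. The groups did not overlap for 16 members (20.5%), against 42.6% of all genes: both KO values lay above both cKO values for 11 members (all genes, 21.4%) and below them for 5 (all genes, 21.2%). An unadjusted p under 0.05 was reached by 4 members (5.13%; Cox6b2, Ndufb8, Ndufa6 and Atp5j2), against 13.8% of all genes.

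**Figure D1:**
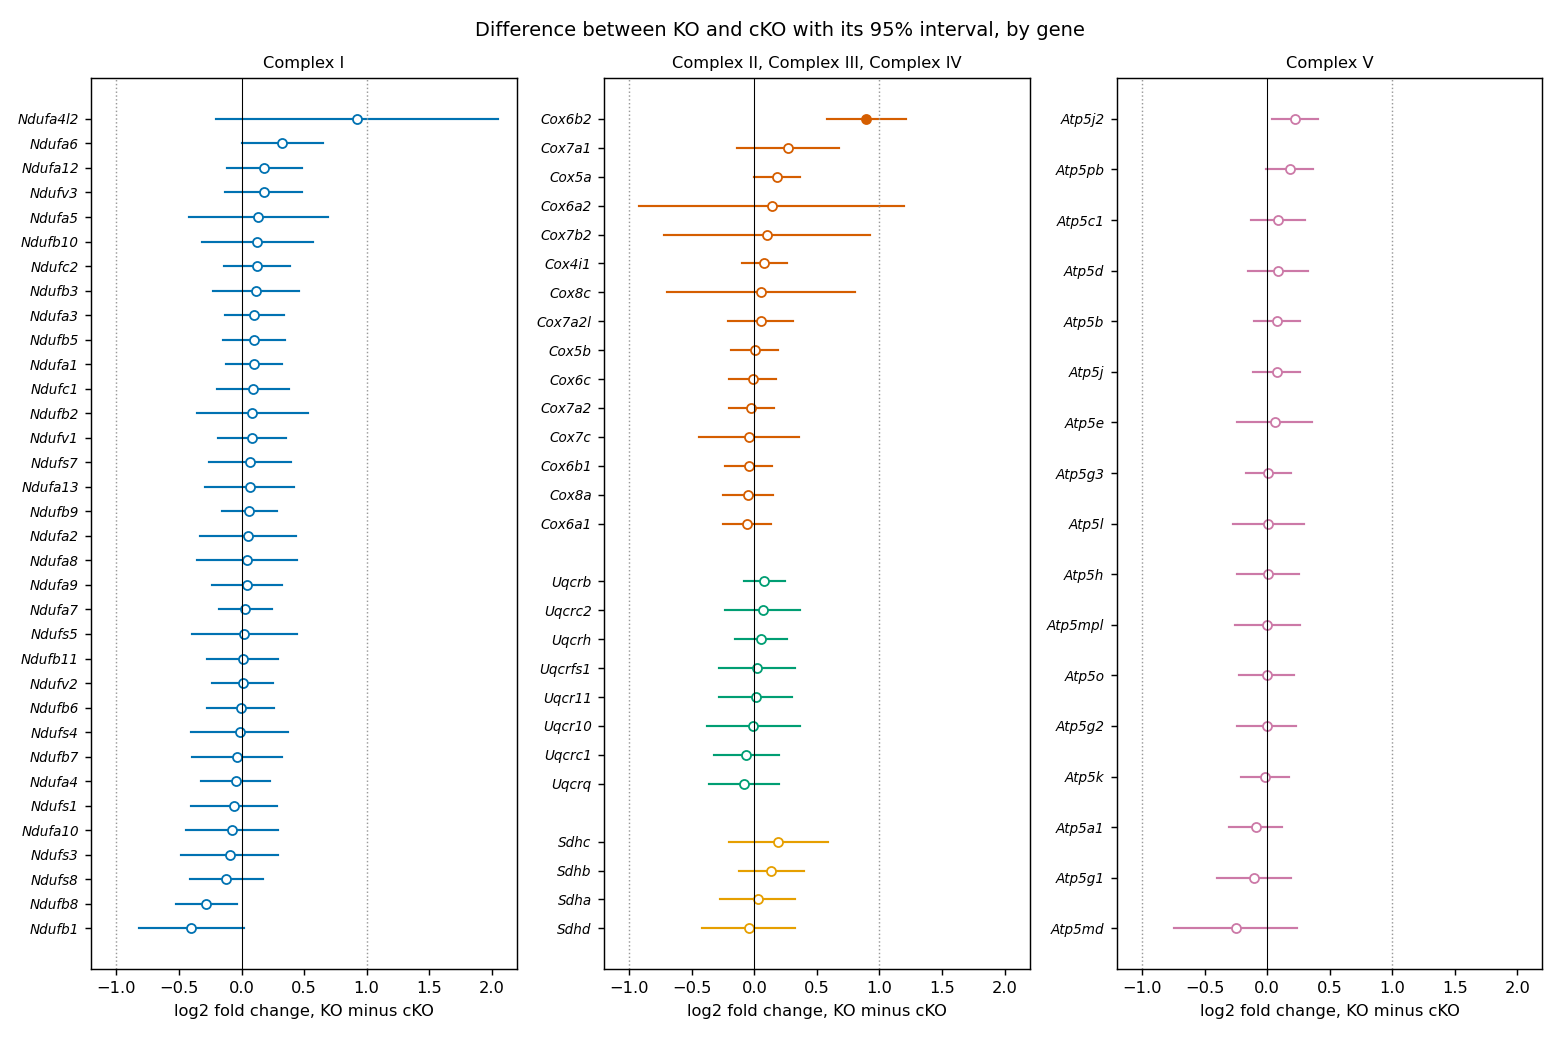
Log2 difference KO minus cKO of the 78 tested subunit genes (x axis, log2 units) with its 95% interval from limma, by complex; dotted lines mark a 2-fold change and the filled point marks the called gene. Cox6b2 stands at 0.90 with an interval clear of 0, Ndufa4l2 at 0.92 has an interval that spans 0, and most other genes sit near 0.

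Complex I, the NADH dehydrogenase, had 34 tested genes with a median difference of 0.057 (24 positive, 10 negative) and none called. The 6 core subunits measured ranged from -0.12 to 0.083. Ndufs1, the largest core subunit, had signals of 2584 and 2989 in cKO and 2489 and 2854 in KO. In neither direction did its groups separate, and the difference was -0.06 (-0.40 to 0.28). Ndufv1, which binds NADH and the flavin, had 5802 and 6726 in cKO and 6791 and 6451 in KO, a difference of 0.083 (-0.19 to 0.36). Ndufs8, a carrier of iron-sulfur clusters, gave the lowest core value, -0.12 (-0.41 to 0.17), with signals of 6881 and 8414 in cKO and 6837 and 7159 in KO. Its groups overlapped, as did those of Ndufv2 (0.0083), Ndufs3 (-0.094) and Ndufs7 (0.067).

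Ndufa4l2 (0.92), counted in complex I by its symbol, had the widest difference and is described with the isoforms below. Among the other genes of complex I the widest differences were in accessory subunits, which surround the core and serve its assembly and stability. Ndufa6, an accessory subunit of the LYR family, had 4675 and 5521 in cKO and 5852 and 6933 in KO. Both KO values were the higher, but the difference of 0.33 (0.0024 to 0.65) was not called (adjusted p = 0.357). Ndufb8, an accessory subunit of the membrane arm whose protein is widely used as a marker of assembled complex I, had 9599 and 10996 in cKO and 8428 and 8487 in KO. Both KO values were the lower, and the difference of -0.28 (-0.52 to -0.038) was not called either (adjusted p = 0.281). Ndufb1, a small subunit of the membrane arm, had 942 and 962 in cKO and 634 and 817 in KO, again without overlap and without a call (-0.40, adjusted p = 0.388). Ndufa12, a subunit of the peripheral arm, had overlapping groups and a difference of 0.18. The 13 Ndufa genes had a median of 0.065 and the 10 tested Ndufb genes a median of 0.036. Ndufb4 was below the filter in its single-gene probe set (29.2, 23.9, 33.7 and 15.8, cKO before KO) and was not tested.

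Complex II, succinate dehydrogenase, is also an enzyme of the citric acid cycle, and its 4 genes had a median of 0.081 with none called. Sdha, the flavoprotein, had 3567 and 4103 in cKO and 3831 and 3954 in KO. The groups overlapped, with a difference of 0.025 (-0.27 to 0.32). Sdhb, the iron-sulfur subunit, differed by 0.14 (-0.13 to 0.40), and the membrane anchors Sdhc and Sdhd by 0.19 (-0.21 to 0.59) and -0.047 (-0.42 to 0.33). All 4 had overlapping groups.

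Complex III, the cytochrome bc1 complex, had the narrowest range of the 5 complexes in the probe sets used. Its 8 genes ranged from -0.085 to 0.079, with a median of 0.015 and none called. Uqcrfs1, the Rieske iron-sulfur protein, had 5576 and 6146 in cKO and 5415 and 6495 in KO. KO and cKO values were interleaved, and the difference was 0.019 (-0.29 to 0.32). The core proteins Uqcrc1 and Uqcrc2 differed by -0.064 and 0.065. Uqcrb, a subunit near the ubiquinone site, was the gene of this complex whose groups did not overlap, at 18491 and 18725 in cKO and 19779 and 19531 in KO (0.079, adjusted p = 0.719). A second, dimmer Uqcrb probe set gave 0.30, also without overlap, and a second one of Uqcrc2 gave 0.19. The further probe sets of Uqcrh, Uqcr10 and Uqcrq above the filter ran from -0.070 to -0.012.

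Complex IV, cytochrome c oxidase, contained the called gene. Cox6b2 had 1999 and 2208 in cKO and 3745 and 4085 in KO, that is 2103 ± 148 against 3915 ± 241 (mean ± SD, n = 2 lines each). Both KO values were well above both cKO values, and the lines of a group differed little from each other. The limma difference was 0.90 (SE 0.13, 95% interval 0.58 to 1.21, adjusted p = 0.0256). The gene is represented by a single probe set. The adjusted p ranged from 0.00309 to 0.082 over the alternatives. It passed the threshold in all of them but the fit without a trend of variance on signal (0.082), and the difference lay between 0.82 and 0.97 when any 1 array was left out. Cox6b1, the ubiquitous isoform of the same subunit, had 14982 and 15854 in cKO and 14683 and 15191 in KO, with overlapping groups and a difference of -0.045 (-0.23 to 0.14). The intervals of the isoforms do not overlap, although the difference between the genes was not itself tested.

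The other genes of complex IV that exist as restricted isoforms were dim, and none was called. Cox7a1, the heart and muscle isoform of subunit 7A, had 395 and 397 in cKO and 447 and 509.8 in KO, with the KO lines higher but no call (0.27, -0.14 to 0.67, adjusted p = 0.595). Cox6a2, the heart and muscle isoform of 6A, had 84.4 and 85.3 in cKO and 147 and 59.2 in KO (0.14). Its KO lines lay on either side of both cKO lines. Cox8c, known from testis, had 430.0 and 264 in cKO and 453 and 269.6 in KO: in both groups line 1 was the higher, and the difference between groups was 0.052 (-0.70 to 0.81). Cox7b2 had 96.1 and 89.1 in cKO and 128 and 77.3 in KO (0.10). Cox4i2, the lung and hypoxia isoform of subunit 4, and Cox8b, the muscle isoform of subunit 8, were below the filter and not tested. Their signals ran from 34.3 to 72.3 and from 5.39 to 30.

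Ndufa4l2, which is induced by hypoxia and resembles Ndufa4, had the greatest difference of any member, 0.92, and also the least certain. Its signals were 66.1 and 163 in cKO and 282 and 145 in KO. The groups overlapped, the interval was -0.20 to 2.05, and the difference moved between 0.30 and 1.55 as single arrays were left out (adjusted p = 0.484). Counted together, the 6 tested isoforms of tissue or stage, Ndufa4l2 among them, were all positive, with a median of 0.20. The sign of 3 of them turned when single arrays were left out: Cox6a2 ran from -0.49 to 0.76, Cox8c from -0.32 to 0.42 and Cox7b2 from -0.25 to 0.45. Of the 6, 3 had an interval within 2-fold, and for the other 3 the interval reached past it.

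The 10 remaining complex IV genes had a median of -0.019 and ranged from -0.060 to 0.18. Cox4i1, the ubiquitous subunit 4 that binds regulatory nucleotides, had 15203 and 15894 in cKO and 16381 and 16493 in KO, the KO lines being higher by 0.081 (-0.10 to 0.26) without a call. Cox5a, another nuclear subunit of the matrix side, had 13892 and 13437 in cKO and 15703 and 15260.4 in KO (0.18, adjusted p = 0.378). The further probe sets of Cox5a above the filter gave 0.013 and 0.35, so its size was not settled by the array. The ubiquitous isoforms Cox6a1 (-0.06), Cox7a2 (-0.024) and Cox8a (-0.049) and the supercomplex factor Cox7a2l (0.051) all lay near 0. Cox6a1 and Cox8a had both KO values below both cKO values, by small amounts. Ndufa4, which the symbol places in complex I but which is now known as a subunit of complex IV, differed by -0.047 (-0.32 to 0.23).

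**Figure D2:**
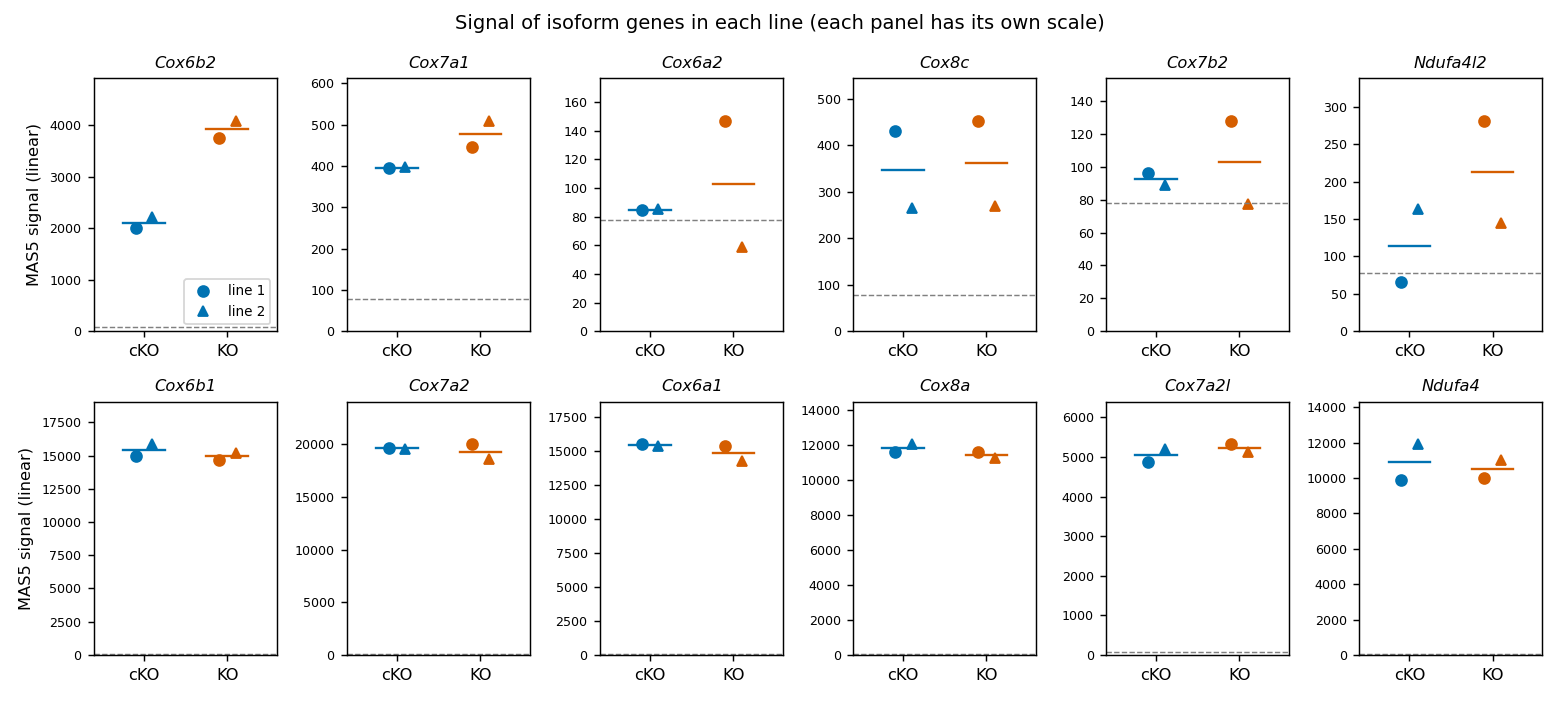
MAS5 signal (y axis, linear, from 0, with its own scale in every panel) of 6 restricted isoform genes (upper row) and 6 ubiquitous genes (lower row) in cKO and KO lines; circles are line 1, triangles line 2, short bars group means, and the dashed line is the filter level of 77.7. Cox6b2 is separated between groups, Cox6a2, Cox7b2 and Ndufa4l2 are close to the filter, and the ubiquitous genes are nearly level.

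Complex V, the ATP synthase, had 17 genes with a median of 0.0088 (10 positive, 7 negative), and none was called. The catalytic F1 genes differed by small amounts: the beta subunit Atp5b had 13630.5 and 13595 in cKO and 14638 and 14105 in KO. Both KO values were higher, by 0.078 (-0.11 to 0.26). The alpha subunit Atp5a1 and the gamma subunit Atp5c1, which forms the rotating shaft, differed by -0.092 and 0.087. Both KO values of Atp5a1 lay below both cKO values, but its further probe sets gave 0.136 and 0.137. The 3 genes for the identical mature c subunit of the membrane rotor, Atp5g1, Atp5g2 and Atp5g3, differed by -0.10, -0.0055 and 0.0097. Atp5j2, the f subunit of the membrane part, had the greatest positive difference of the complex, at 13899 and 13895 in cKO and 15968 and 16449.5 in KO. Its groups were separate and its interval narrow (0.22, 0.041 to 0.40), but it was not called (adjusted p = 0.252). A second bright Atp5j2 probe set gave 0.072 with overlapping groups, at 12906 and 14258 in cKO and 13703 and 14835 in KO. A dim one gave 0.19, also with overlap. Atp5pb, the b subunit of the peripheral stalk, had 12699.7 and 12151 in cKO and 13958 and 14154 in KO (0.18, adjusted p = 0.405). Its second probe set gave 0.054 with overlapping groups.

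Atp5md, a small membrane subunit needed for stable ATP synthase, had the greatest negative difference of complex V and rested on 1 array. Its signals were 10028 and 11234 in cKO and 7005 and 11317 in KO, with KO line 1 below the other 3. The difference was -0.25 (-0.74 to 0.24, adjusted p = 0.695). Without KO line 1 it turned to 0.092 (adjusted p = 0.898), and without KO line 2 it was -0.60 and was called (adjusted p = 0.0310).

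Most further probe sets of the members lay within 0.5 of the one used, a bound far wider than the members' median size of 0.066. Of 71 further probe sets above the filter, for 44 genes, 69 differed from the one used by under 0.5 on the log2 scale, and limma called none of the 71. The exceptions were second probe sets of Atp5o (difference 0.55) and Sdhd (0.51), whose main probe sets gave -0.0051 and -0.047. A second Ndufb8 probe set below the filter had 86.4 and 68.3 in cKO and 8.89 and 35.2 in KO, a range in which MAS5 values are noisy.

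The members differed between line numbers, mostly in 1 direction. Line 2 was above line 1 in both groups for 57 of 78 members (73.1%), against 33.7% of all genes tested and 52.8% of the 934 genes with a mean signal over 5000. Among the 63 members over that level the share was 74.6%. The median of line 2 minus line 1 was 0.17 in cKO and 0.10 in KO for the members, and -0.0042 and -0.021 for all genes. The labels do not tie line 1 of one group to line 1 of the other, so this is a description over 4 arrays with no test. Array measures that moved with the line number were the median signal, 76.6 and 81.6 for the first lines against 64.4 and 64.9 for the second, and the 18S rRNA control, 4144 and 4187 against 5583 and 5465. Their part in the line difference was not tested. Under quantile normalization, which removes the gap in medians, line 2 was higher in both groups for 54 members (69.2%), against 38.6% of all genes.

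The line difference was counted in each complex. In complex I line 2 was higher in both groups for 31 of 34 genes (91.2%), with medians of 0.23 in cKO and 0.20 in KO, and under quantile normalization for 29 of 34. All 10 tested Ndufb genes had it. Ndufb2, an accessory subunit, had 6539.7 and 8759 in cKO and 6857 and 9431 in KO, line 2 being higher by 0.42 and 0.46. Ndufa5, a subunit of the peripheral arm, had 2854 and 3682 in cKO and 2812 and 4503 in KO, differences of 0.37 and 0.68. In both genes the second lines lay above both first lines, whatever the genotype. Complex II had the pattern in 4 of 4 genes and complex III in 6 of 8, with medians of 0.23 and 0.21 for complex II and 0.18 and 0.21 for complex III.

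Complexes V and IV had the pattern in part of their genes. In complex V line 2 was higher in both groups for 11 of 17 genes, with medians of 0.14 and 0.048. In complex IV this held for 5 of 15 (33.3%), with medians of 0.014 in cKO and -0.057 in KO. The share was 33.7% over all genes and 52.8% over genes with a mean signal over 5000. Among bright genes of other complexes, Uqcrb (0.018 in cKO, -0.018 in KO) and Atp5b (-0.0038, -0.054) differed little between lines. Atp5c1 was higher in line 2 (0.10, 0.15). The part of signal level in the difference between complexes was not tested. The lowest values were dim isoforms: Cox8c was lower in line 2 by 0.69 in cKO and 0.74 in KO, on the log2 scale. Cox6a2 differed in KO only, by -1.25, and Cox7b2 by -0.10 in cKO and -0.69 in KO. The difference between complexes was not tested, since genes of 1 array are not replicates.

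**Figure D3:**
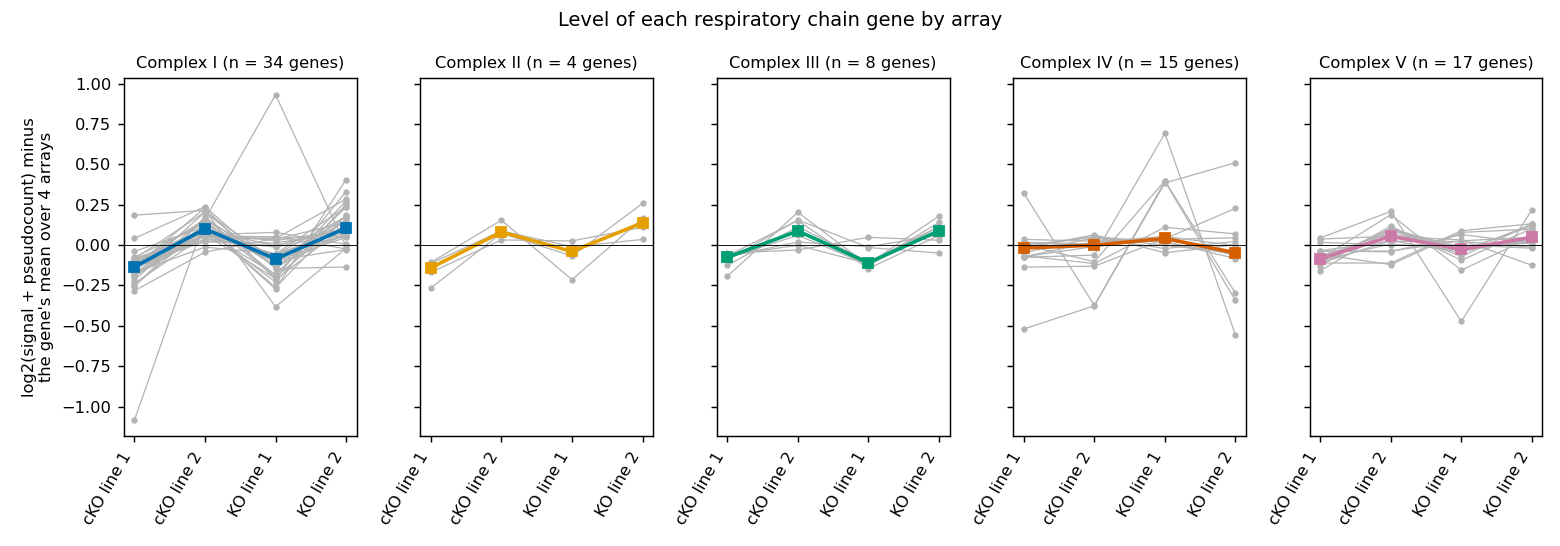
Log2 signal of each gene minus its mean over the 4 arrays (y axis, log2 units) on each array (x axis), by complex; grey lines are genes and coloured squares the median of the complex. The medians of complexes I, II and III are higher on the line 2 array in both genotypes, while the median of complex IV stays near 0.

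**Figure D4:**
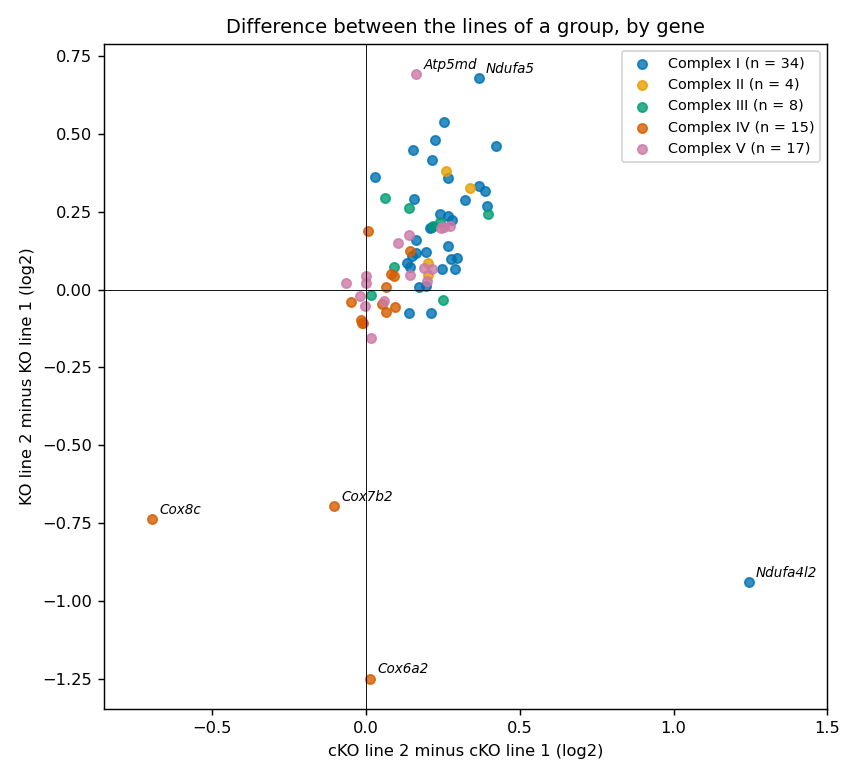
Line 2 minus line 1 in the cKO group (x axis) and in the KO group (y axis), in log2 units, for the 78 tested members coloured by complex. Most complex I genes lie in the upper right, Cox8c lies in the lower left, and Ndufa4l2 is far to the right with a negative KO value.

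Genes that work beside the chain were compared by lists set by function. None of 42 tested assembly factors (25 positive, 17 negative, median 0.073) and none of 12 tested regulators of mitochondrial genes (8 positive, 4 negative, median 0.10) was called. Among the regulators Nrf1 differed by 0.19, Gabpa by 0.14, Yy1 by 0.27 and Tfam, which packages and transcribes mitochondrial DNA, by 0.10. Tfb1m, a methyltransferase of mitochondrial ribosomal RNA, differed by 0.39 (adjusted p = 0.326) and Esrra, an orphan receptor that drives these genes, by -0.45 (adjusted p = 0.528). Of 16 citric acid cycle genes 7 were positive and 9 negative (median -0.051), and the smallest adjusted p went to Idh2, the mitochondrial NADP-dependent isocitrate dehydrogenase (0.55, adjusted p = 0.122). Of 15 import genes 5 were positive and 10 negative (median -0.021), with none called. The carriers and subunits outside the symbol rule, cytochrome c (Cycs, 0.18), cytochrome c1 (Cyc1, -0.031) and the acyl carrier protein Ndufab1 (-0.28), were not called. Line 2 was higher in both groups for 30 of the 42 assembly factors and 12 of the 15 import genes, but for 7 of the 16 citric acid cycle genes.

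Members with and without a promoter element differed little between genotypes. The 17 tested members with the NRF1 letters had a median difference of 0.0097 and the 47 without them 0.053. The 17 with the ETS letters had -0.017 and the 47 without 0.065, and the 15 with the YY1 letters had 0.075 and the 49 without 0.011. No test was made of these medians.

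Checks of the cells and the targeted gene bear on the whole array. Kdm6a, in its brightest probe set, had 658 and 415 in cKO and 265 and 198 in KO, a difference of -1.17 (adjusted p = 0.0884), and whether this probe set lies in the deleted part is not known. All 10 embryonic stem cell markers were tested, 6 positive and 4 negative, and Lin28a, an RNA-binding protein, was called lower in KO (-0.66, adjusted p = 0.0346). The pluripotency factors Esrrb (0.94, adjusted p = 0.115), Zfp42 (0.51, adjusted p = 0.102) and Sox2 (0.37, adjusted p = 0.0994) had both KO values above both cKO values without a call. Fgf4 (0.24) did so too, while Utf1 (-0.19) had both KO values below both cKO values, also without a call. The groups of Nanog (0.67), Pou5f1 (-0.063), Tdgf1 (-0.033) and Dppa5a (0.018) overlapped. The summed signal of the list was 86763 and 85931 in cKO and 98133 and 89329.6 in KO. Of 13 measured feeder fibroblast markers 10 were tested, 9 of them negative, with a median difference of -1.0. Col5a1 and Thy1 were called lower in KO. The summed signal of the list was 11518 and 9680 in cKO and 9660 and 8928 in KO. Most of that sum came from Fn1, the 1 positive marker (0.055), with 7601 and 7100 in cKO and 8014 and 7274 in KO. Of 8 striated muscle markers, relevant to the muscle isoforms, 5 were tested and none was called, with sums of 756 and 749 in cKO and 619 and 496 in KO. Of 8 endoderm markers 2 were tested, and Sparc was called lower in KO. The summed signal was 8795 and 8195 in cKO and 2879.8 and 2814 in KO. Sparc alone gave 7756 and 7523 in cKO and 2313 and 2478 in KO. Of 6 trophoblast markers 4 were tested, 2 positive and 2 negative, and none was called; the sums were 2009 and 1383 in cKO and 2731 and 1829.9 in KO. Tfap2c, a transcription factor of that list, had both KO values above both cKO values (0.79, adjusted p = 0.312), as had Hand1 (0.30). Ascl2 had both KO values below both cKO values (-0.67, adjusted p = 0.330), and the groups of Eomes overlapped (-0.63). The part of these markers in the Cox6b2 result was not tested. In bulk RNA, fewer cells of a type and less RNA per cell cannot be told apart.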

How the data were processed

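The authors deposited linear intensity values, a signal for each probe set on each array, from MAS5 according to the submitters' processing notes (version and settings not given in the sources used here). Every array had a mean of 500 once 2% of values was trimmed at both ends, so bright probe sets are held to a common mean and the median is free to differ. The number of arrays (2 per group) limits the precision.

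Probe sets were named through the platform annotation, and only those naming 1 gene were used (34945 of 45101, with 932 naming several and 9160 none). Of these, 34741 had a current symbol by Entrez identifier in RefSeq's gene table (GRCm38.p6), and no member's symbol differed. The probe set with the highest mean log2 signal stood for a gene, and the lower 40% of genes, below a signal of 77.7, were left out (7277 genes). KO was compared with cKO by limma 3.58.1 in R 4.3.3 (lmFit, eBayes with trend) on log2(signal + 4.79), 4.79 being the 10th percentile of all values, with 2 residual and 5.13 prior degrees of freedom. The procedure was tested on simulated data. Genes named are the called members, the 3 of largest difference in each direction per complex, fixed core and catalytic subunits, isoform genes, and the 3 of largest line difference in each direction; other names were chosen after their values were seen. Members, lists and tests were chosen with earlier results of these data known. Alternatives were other pseudocounts (1, or the 25th percentile), filters (none, lower 60%), scalings, probe set rules, variance models and thresholds, the line number as a block, and each array left out. Tables and plots used Python 3.11.15, numpy 2.4.6, pandas 2.3.3 and matplotlib 3.10.9.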

Additional observations from a re-analysis of the deposited data

How the results depend on the processing

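The member median (0.0445) changed sign with single arrays left out (-0.047 to 0.11). The count of called members was 1 (Cox6b2) in limma as reported. It was 0 with eBayes without trend, where Cox6b2 alone of the 78 (1 gene) had an unadjusted p under 0.05, and 1 to 2 with single arrays left out. In the other settings run, except the block below, it was 1. Over all genes the calls numbered 69 higher and 171 lower, against 3 and 25 without trend, 42 and 105 with no filter, 46 and 108 with the filter on the lower 60%, 43 and 86 with the mean of probe sets, and 115 and 317 without KO line 1. Complex medians that moved beyond the spread between lines were that of complex II with the mean of probe sets (0.23) and that of complex IV with a filter on the lower 60% (-0.0065). With single arrays left out, the medians of all 5 complexes changed sign: complex I ran from -0.074 to 0.17, complex II from -0.027 to 0.18, complex III from -0.090 to 0.10, the complex IV median from -0.064 to 0.076 and the complex V median from -0.066 to 0.089. Atp5a1 reversed to 0.060 with the mean of probe sets, and Atp5md reversed with an array left out (-0.60 to 0.092). The mean of probe sets took in dim ones below the filter. It also changed other signs, among them those of Uqcrq (-0.085 to 0.40) and Sdhd (-0.047 to 0.23). With it Sdha went to 0.37 and Ndufb8 to -1.04. Of single-gene values under an alternative, 546 stayed on the same side and direction or within the spread, 41 moved, 3 became called, 1 lost its call and 2 reversed. With Ndufa4 counted in complex IV, an alternative chosen after seeing the data, the medians of complexes I and IV were within the spread between lines. Where an array was left out, the lone line was assumed to vary like the other group's lines.

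With the line number as a replicate block, 3 members were called: Cox6b2, Ndufa6 (0.33, adjusted p = 0.0308) and Atp5j2 (0.22, adjusted p = 0.0476), among 431 higher and 617 lower genes. Over all genes the line differences of the groups correlated at r = 0.52 (genes are not independent replicates), and over the members at 0.21, but with 2 lines per group the labels give no pairing.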

Other observations

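Probe sets that name several genes were left out of the members, and some stand for chain subunits. The brighter one for Ndufb4 and its copies Ndufb4b and Ndufb4c had signals of 5983 and 6561 in cKO and 7352 and 7659 in KO (difference 0.26, not called), and cannot tell these near-identical genes apart. The one for Ndufs6 and Ndufs6b had 7431 and 7393 in cKO and 8061 and 8898 in KO (0.19, not called), with both KO values higher. The brighter one for Ndufa11 and Ndufa11b had overlapping groups (0.084). In limma over all probe sets, none of the 9 such probe sets was called.

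Genes beside Cox6b2 on chromosome 7 were looked at after its call was seen. Brsk1, a neuronal kinase, had 219.9 and 131 in cKO and 389 and 447 in KO, a difference of 1.27 that limma did not call (adjusted p = 0.0732). Kmt5c, a histone H4 methyltransferase, had both KO values higher, at 0.31 (adjusted p = 0.482). Hspbp1 (-0.022) and Ppp6r1 (0.063) had overlapping groups, as had Tmem238 (-0.21), and Tmem150b, Il11 and Tmem190 were below the filter.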
